A study of Prunus dulcis and Malus domestica and Olea europaea with 8 samples.

Results

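The plant microRNA (miRNA) families miR397, miR398 and miR408 are known as copper miRNAs. In Arabidopsis, the transcription factor SPL7 switches them on when copper is scarce, and they lower the mRNAs of copper proteins that the plant can spare, which leaves copper for plastocyanin, the electron carrier of photosynthesis. miR398 acts on the mRNAs of copper/zinc superoxide dismutases, which detoxify superoxide, and of the chaperone that loads them with copper. miR397 acts on laccases, the copper oxidases that polymerize lignin, and miR408 on plantacyanin and further laccases. These roles are background and were not measured here.

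The members were chosen by name, as every row of the miRNA count table whose gene name carries one of these family numbers. This gave 4 of the 209 miRNA genes. There was 1 gene of family miR397 and there were 3 of family miR398. None of the rows used here carried a miR408 name, so miR408 was not analysed here and every sum given for the copper families is a sum over miR397 and miR398. Counts came from small RNA sequencing, which reads the short RNA fraction, of the edible portion of 8 plant foods bought for eating, with 1 library per food: almond (Prunus dulcis), apple (Malus domestica), olive (Olea europaea), orange (Citrus sinensis), pear (Pyrus communis), spinach (Spinacia oleracea), tomato (Solanum lycopersicum) and walnut (Juglans regia). The labels give 0.5 g of material for almond and walnut and 0.1 g for the other foods, and no treatment. The methods of the study state a much smaller mass for walnut than the labels do. The reads of all foods were aligned to the peach genome (Prunus persica NCBIv2). A gene name below thus stands for the peach gene on which reads of another plant were placed. Reads that did not align to peach were not counted, and how many each food lost this way was not examined here. A low or missing count is therefore not a measure of how little of a miRNA the food held. Libraries held between 39249 (walnut) and 212021 (apple) counts on the miRNA genes, with a median of 67321. The 3 highest genes of a library, none of them a member, took between 36.6% (almond) and 79.1% (apple) of these counts.

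Since each food had a single library, differences between foods could not be set against a spread between samples and were not tested. A level is given as the raw count and as a share of the miRNA counts in that library. The 95% intervals are exact (by Clopper-Pearson for a share and by the conditional binomial for a ratio of 2 foods) and cover counting error only, since copies made in PCR could not be removed. For a count of 0, the share that 3 counts would give is used as the limit.

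MIR397 (ENSRNA049996654) lies on chromosome G4 of peach from 1619282 to 1619483 on the + strand. MIR398b (ENSRNA049996803) lies on G4 from 19261810 to 19261934 on the - strand, and MIR398a (ENSRNA049996813) on G4 from 20111541 to 20111659 on the + strand. These 2 copies are the nearest annotated miRNA genes to each other, 849606 bp apart. The remaining copy, which the table names only MIR398 (ENSRNA050003695) and which is called the G1 copy here, lies on G1 from 28517350 to 28517461 on the - strand. The table gives each of them as an exon of a miRNA gene, of between 112 and 202 bp, and the counts of both arms of a hairpin are summed. No mature sequence was at hand for these genes, and how many bases separate the miR398 copies was not examined here. Near-identical copies can share reads, and how such reads were placed was not stated. The split of counts among the miR398 genes is therefore uncertain. Their sum would be too low if reads that fit several copies were left out.

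The copper families held several percent of the miRNA counts in orange, walnut and pear and were close to the detection limit in olive. They took 3437 counts in orange, which is 5.13% of that library (95% CI 4.96 to 5.30). Walnut followed with 1363 counts or 3.47% (3.29 to 3.66), and pear with 3336 counts or 3.06% (2.96 to 3.16). Almond had 457 counts, a share of 0.802% (0.730 to 0.878), and spinach 251 counts, a share of 0.457% (0.402 to 0.517). The lowest values were 99 counts in tomato (0.109%, 0.0888 to 0.133), 192 in apple (0.0906%, 0.0782 to 0.104) and 8 in olive (0.0118%, 0.00511 to 0.0233). The share in orange was thus 433-fold that in olive, which rests on 8 counts. Most neighbours in this order differed beyond counting error, with orange at 1.48 times walnut (1.39 to 1.57) and walnut at 1.13 times pear (1.06 to 1.21). Tomato and apple did not, at a ratio of 1.21 (0.937 to 1.54).

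Which food led changed with the scaling of the libraries. In the deposited normalized reads the copper families stood at 436.2 in almond, 355.5 in walnut, 342.6 in orange and 113.6 in pear. Orange over almond was 6.40 in shares and 0.785 in normalized reads. Walnut over pear was 1.13 in shares, 3.13 in normalized reads and 0.564 with the default size factors of DESeq2. The lowest food was olive in shares and apple in normalized reads. Orange was highest under each scaling that was tried except the deposited one.

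**Figure D1:**
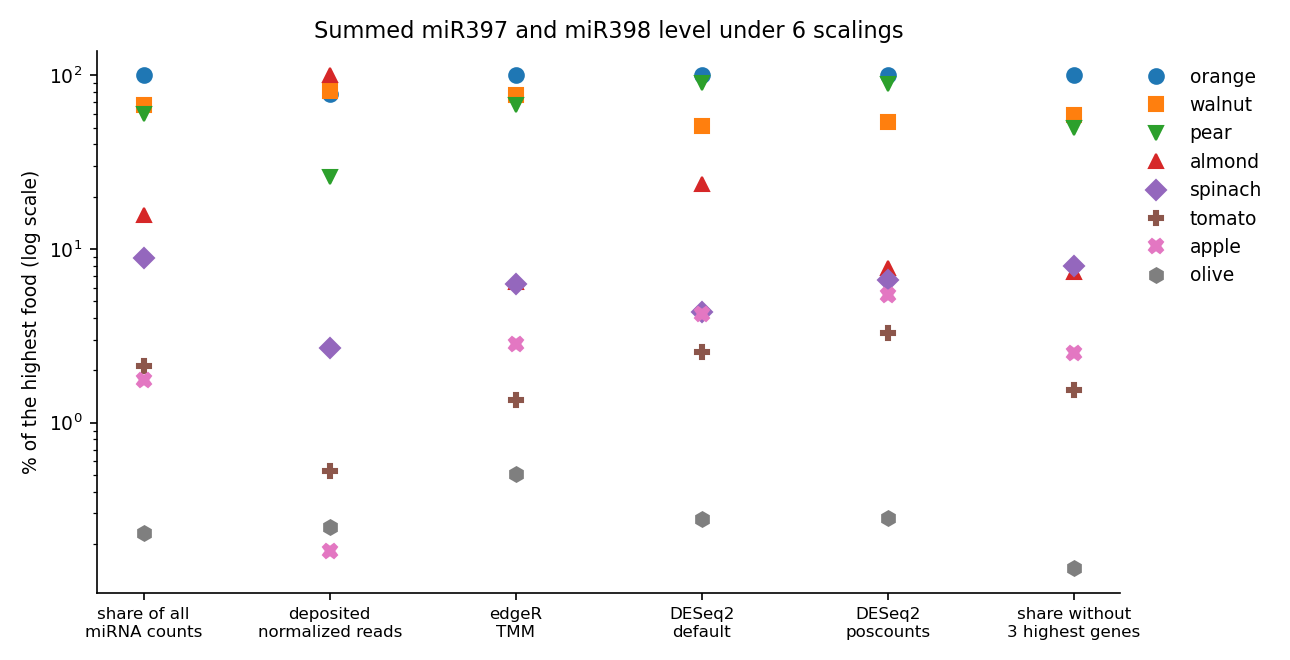
Summed level of miR397 and miR398 in each of 8 foods (symbols) under 6 ways of scaling the libraries (x axis), as percent of the highest food under that scaling (y axis, log scale). Orange is at the top under every scaling except the deposited normalized reads, where almond is highest, and olive or apple is lowest throughout.

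MIR398a was the member with the most counts and the only one counted in all 8 foods, which held for 9.09% of the 209 genes. It had 3202 counts in orange, 4.78% of the library (4.62 to 4.94), where 97 miRNA genes were detected and it ranked 4th. In walnut it had 1134 counts, 2.89% (2.73 to 3.06), where it ranked 7th of 68. Spinach followed with 247 counts (0.450%) and almond with 137 (0.240%), while tomato had 82 (0.0905%) and pear 62 (0.0569%). Apple had 5 counts and olive 2, shares of 0.00236% and 0.00296% whose intervals overlapped. In shares, every other pair of neighbours in this order was separated beyond counting error, the closest being tomato at 1.59 times pear (1.13 to 2.25). Lower in the order this depended on the scaling: spinach over almond was 1.87 in shares and 0.0878 in deposited normalized reads (11.5 in spinach and 130.8 in almond). Tomato over pear was 0.896 in deposited normalized reads, with an interval that included 1 (0.637 to 1.27). Orange and walnut stood 52.8-fold and 31.9-fold above the median of the other 7 foods.

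MIR398b was instead highest in pear, where its 2967 counts made 2.72% of the library (2.63 to 2.82) and ranked 8th of 105 detected genes. Almond had 204 counts (0.358%) and orange 126 (0.188%). Tomato had 7 counts, olive 5 and spinach 2. Walnut had 0 of 39249 and apple 0 of 212021, where the limit of 3 counts was 0.00764% in walnut and 0.00141% in apple. The exact intervals reached 0.00940% in walnut and 0.00174% in apple. Pear stood at 7.61 times almond (6.60 to 8.81) and almond at 1.90 times orange (1.52 to 2.40), whereas tomato, olive and spinach could not be separated by counting error.

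The G1 copy reached at least 10 counts in 4 foods, against 3 for MIR398b and 6 for MIR398a, and its highest share was below theirs. It had 305 counts in pear (0.280%, 0.249 to 0.313), 115 in almond (0.202%, 0.167 to 0.242), 109 in orange (0.163%, 0.134 to 0.196) and 185 in apple (0.0873%, 0.0751 to 0.101). Pear lay above almond by a ratio of 1.39 (1.12 to 1.73), and almond over orange was 1.24 with an interval that included 1 (0.946 to 1.63). Tomato had 7 counts and spinach 2, the same numbers as for MIR398b in these foods, and olive and walnut had 0. In deposited normalized reads both MIR398b and the G1 copy were highest in almond, at 194.7 and 109.8, against 101.0 and 10.4 in pear.

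Nearly all MIR397 counts came from walnut, with 229 of the 238 counts over all foods. This was 0.583% of the walnut library (0.511 to 0.664), and MIR397 ranked 17th of the 68 genes detected there. The other foods had 3 counts in tomato, 2 in pear, 2 in apple, 1 in almond, 1 in olive and 0 in orange and spinach. The 5 low values could not be separated from each other by counting error. Walnut over tomato was 176 (59.6 to 861). Walnut was highest for MIR397 under all 6 scalings, and its library was the shallowest of the 8. Within the copper families, MIR397 made up 16.8% of the counts in walnut (14.9 to 18.9), 12.5% in olive from 1 of 8 counts (0.316 to 52.7, which includes the walnut value), 3.03% in tomato from 3 counts, 1.04% in apple from 2 counts, 0.219% in almond and 0.0600% in pear.

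**Figure D2:**
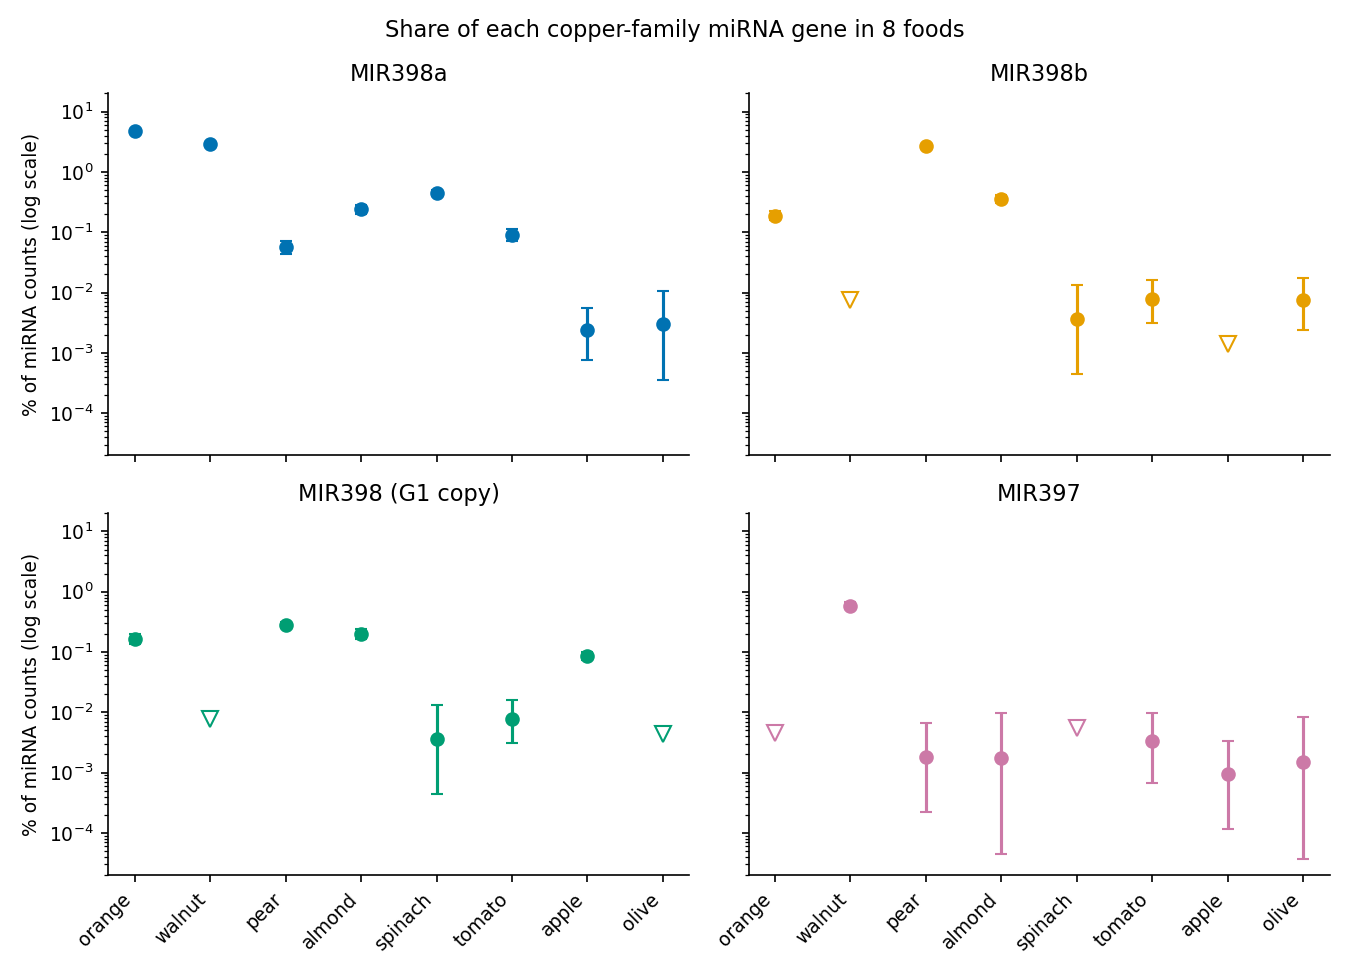
Share of all miRNA counts (y axis, percent, log scale) of MIR398a, MIR398b, the G1 copy of MIR398 and MIR397 in 8 foods with 1 library each (x axis, ordered by the summed copper share). Points are shares with exact 95% intervals for counting error, and open triangles mark the limit of 3 counts where the count was 0; MIR398a is highest in orange, MIR398b in pear and MIR397 in walnut.

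Every food had counts of at least 2 members, but the number of members with at least 10 counts varied between foods. At least 1 count was found for 4 of 4 members in almond, pear and tomato, where 58.9%, 50.2% and 50.7% of the 209 genes were detected. It was found for 3 of 4 in apple (46.4% of all genes), olive (48.8%), orange (46.4%) and spinach (33.0%), and for 2 of 4 in walnut (32.5%). At least 10 counts were reached by 3 members in almond, orange and pear, by 2 in walnut, by 1 in apple, spinach and tomato and by 0 in olive. The corresponding percentages of all genes were 32.1% in almond, 25.4% in orange, 27.8% in pear, 16.3% in walnut, 22.0% in apple, 15.8% in spinach, 21.1% in tomato and 21.5% in olive.

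A member was counted as raised in a food when it had at least 10 counts and its share was at least 10-fold above the median of the other 7 foods, with the limit of 3 counts used for lower shares. The percentages of all genes include genes below 10 counts, which could not pass. Orange had 3 of 4 members past this fold (MIR398a, MIR398b and the G1 copy), against 11.5% of all genes. Walnut had 2 (MIR397 and MIR398a; 9.09% of all genes), pear 2 (MIR398b and the G1 copy; 7.18%) and almond 2 (the same pair as pear; 15.8%). Apple had 1, the G1 copy (4.78%), at 11.3-fold. Olive, spinach and tomato had 0 of 4, against 9.09%, 3.35% and 4.31% of all genes. Each of the 4 members passed the fold in at least 1 food, which 38.3% of all genes did.

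The 3 miR398 copies took very different parts of the family's counts in different foods, a measure that does not depend on how the libraries are scaled. MIR398a held 100% of the 1134 miR398 counts in walnut (99.7 to 100), 98.4% of 251 in spinach (96.0 to 99.6), 93.2% of 3437 in orange (92.3 to 94.0) and 85.4% of 96 in tomato (76.7 to 91.8). In pear MIR398b held 89.0% of 3334 (87.9 to 90.0) and MIR398a 1.86% (1.43 to 2.38). In apple the G1 copy held 97.4% of 190 (94.0 to 99.1) and MIR398a 2.63% (0.860 to 6.03). Almond was the most even, with 44.7% on MIR398b (40.1 to 49.4), 30.04% on MIR398a (25.9 to 34.5) and 25.2% on the G1 copy (21.3 to 29.5). Olive had only 7 miR398 counts, 5 of them on MIR398b and 2 on MIR398a. MIR398a thus held 28.6% there, and its wide interval (3.67 to 71.0) lay below those of walnut, spinach, orange and tomato. MIR398a thus took at most 30.04% of the miR398 counts in the 3 foods of the rose family (almond, apple and pear), to which peach also belongs, and at least 85.4% in orange, spinach, tomato and walnut. Olive, which is outside the rose family, did not follow this split, though on 7 counts. The split was noticed in the data and was not tested.

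**Figure D3:**
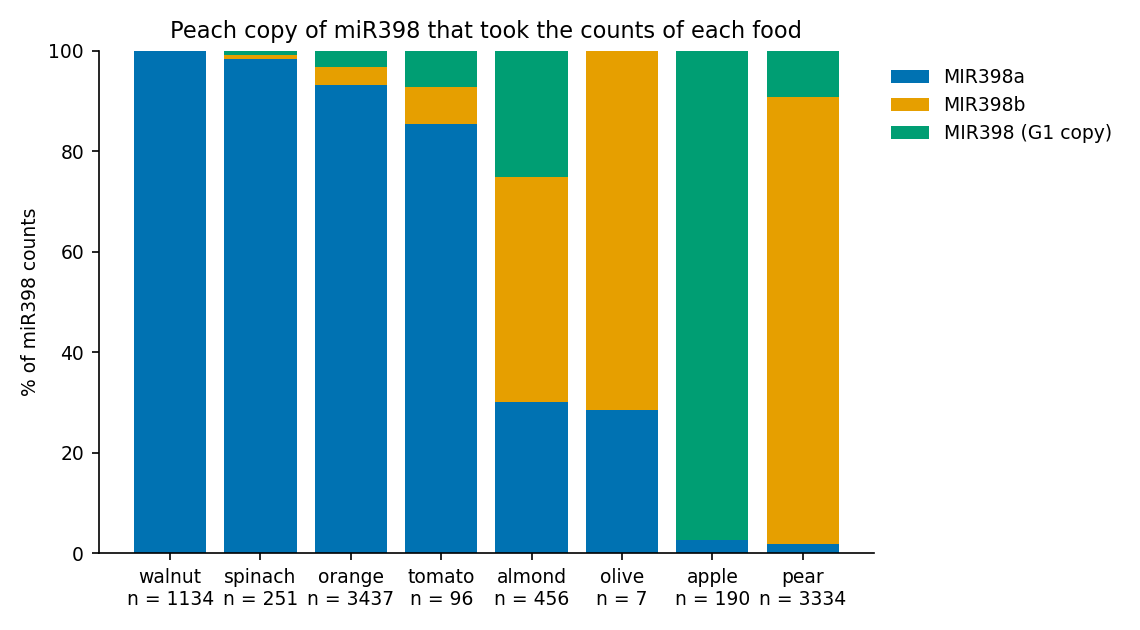
Percent of the miR398 counts of each food (y axis) placed on MIR398a, MIR398b and the G1 copy of MIR398 (colours), for 8 foods with the number of miR398 counts under each name (x axis). MIR398a fills 85.4% to 100% of the bar in walnut, spinach, orange and tomato, MIR398b 89.0% in pear and the G1 copy 97.4% in apple; the olive bar rests on 7 counts.

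As a sum of shares, miR398 was closer between pear and walnut than any of its copies. The family held 5.13% in orange, 3.06% in pear (2.96 to 3.16) and 2.89% in walnut (2.73 to 3.06), and pear over walnut was 1.06 with an interval that included 1 (0.989 to 1.13). In deposited normalized reads this ratio was 0.384, and with the default size factors of DESeq2 it was 2.13. MIR398b alone made most of the pear value and MIR398a all of the walnut value. The apple value rested on the G1 copy: without it the copper families fell to 0.00330% in apple, against 0.0906% with it.

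Other plant families that act on copper proteins were looked for by name. There were 0 rows of miR857, which acts on a laccase in Arabidopsis, 0 of miR1444, which acts on polyphenol oxidases in poplar, and 0 of miR528, which acts on copper proteins in grasses. The families tied to sulfate (miR395) and phosphate (miR399, miR827 and miR2111) had 40 rows and served as the nearest comparison. Of the counts on copper, sulfate and phosphate families together, the copper families held 98.3% in walnut (97.5 to 98.9), 89.6% in spinach (85.5 to 93.0) and 88.9% in pear (87.8 to 89.9). They held 71.1% in orange (69.8 to 72.3) and 69.8% in almond (66.1 to 73.3). In tomato they held 34.7% (29.2 to 40.6), in apple 28.2% (24.8 to 31.7) and in olive 2.29% (0.995 to 4.47). Olive had 8 copper counts beside 341 counts of the sulfate and phosphate families, of which 212 were miR395, and its sulfate and phosphate share, 0.504% (0.452 to 0.561), was exceeded only by orange with 2.09% (1.98 to 2.20). Spinach had 251 copper counts beside 29 of the sulfate and phosphate families, and walnut 1363 beside 23. In orange the sulfate and phosphate counts were 1399, of which miR827, which acts on phosphate transport and signalling genes, had 1344.

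**Figure D4:**
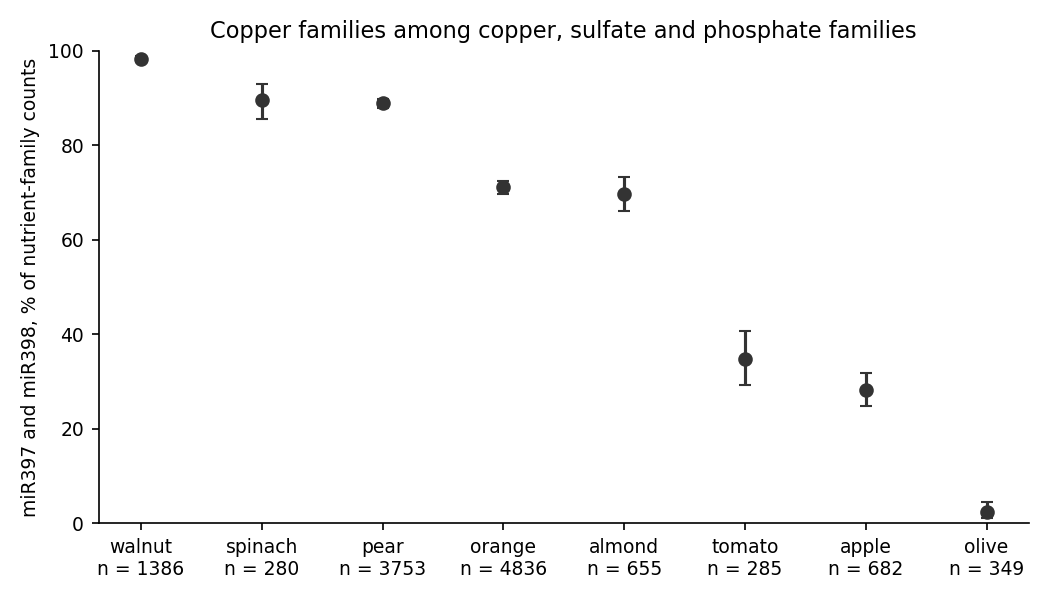
Counts of miR397 and miR398 as percent of all counts on the copper, sulfate and phosphate families (y axis) in 8 foods, with the number of these counts under each name (x axis). Points are percentages with exact 95% intervals for counting error, which run from 98.3% in walnut to 2.29% in olive.

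The likeness of patterns across foods was described by Pearson's r of log10 shares over the 8 foods, among 62 other genes with at least 10 counts in at least 3 foods. A count of 0 was set to the limit of 3 counts in that library, which can exceed a counted share in another food. The points are single libraries of different plants that share the scaling by total count, so r is a description only. Closest to MIR398a were MIR858 (r = 0.86), whose family acts on MYB transcription factors of the flavonoid pathway, the MIR159 gene ENSRNA049996936 (0.85), whose family acts on GAMYB-like factors, and MIR167a (0.83), whose family acts on auxin response factors. MIR858 shared the high values in orange (0.391%) and walnut (0.148%), but had no counts in almond and spinach, where MIR398a had 137 and 247. The limits set for MIR858 there, 0.00526% and 0.00546%, lay above its counted share in pear (0.00459%). Its r with MIR398a thus rests in part on these limits. Closest to MIR398b were MIR394b (0.87), MIR7122a (0.86) and MIR171d (0.85). MIR394b, whose family acts on an F-box gene, was at 0.179% in orange, 0.137% in almond and 0.0514% in pear and had no count in walnut. Closest to the G1 copy were the MIR159 gene ENSRNA050003608 (0.76), MIR7122a (0.74) and MIR394b (0.62). Among the miR398 copies themselves, MIR398b and the G1 copy had r = 0.73, MIR398b and MIR398a 0.30, and MIR398a and the G1 copy 0.05. MIR397 reached 10 counts in 1 food and was left out of this description.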

How the data were processed

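Small RNA was sequenced in 1 library per food. After adapter removal with skewer, the authors used ShortStack to align reads 15 to 30 bases long against peach (Prunus persica NCBIv2 with miRBase miRNAs), allowing up to 2 seed mismatches, and HTSeq to obtain strand-specific counts per miRNA gene. The deposited raw table holds these counts without normalization. The deposited normalized table holds a signal, the counts divided by 1 DESeq2 factor per library (constant to within 1e-09), from 1.05 in almond to 241.04 in apple. DESeq2 factors computed here from the same counts were 0.535 in almond and 1.27 in apple by default, and 1.67 and 1.01 with poscounts. The deposited factors were thus not reproduced. For the tools of the authors, versions were not given in the sources used here. Depth was known only as the count on miRNA genes, and how reads that fit several copies were placed was not stated.

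Shares, exact 95% intervals and ratios were computed from the raw counts. The alternatives were the deposited normalized reads, edgeR TMM, DESeq2 size factors (default and poscounts), shares without the 3 highest genes, minimums of 3 and 10 counts, a 5-fold threshold, Spearman's rho, and leaving out almond or the G1 copy. All members were named, with the 3 genes of highest r for each member with at least 10 counts in at least 2 foods. The members and lists were chosen with earlier results of these data known. The calculations were tested on simulated data. Calculations ran in Python 3.11.15 (scipy 1.17.1, pandas 2.3.3, numpy 2.4.6) and R 4.3.3 (DESeq2 1.42.0, edgeR 4.0.16), and plots in matplotlib 3.10.9.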

Additional observations from a re-analysis of the deposited data

Results flagged for a closer look

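By Dixon's test across the 8 libraries (95% critical value), applied to the shares of the 4 members, of miR398 and of the copper families, 2 of 6 measures had a food that stood apart. MIR397 stood apart in walnut, at 0.583% of the miRNA counts, with a gap to the next food that was 0.994 of the whole range. MIR398b stood apart in pear, at 2.72%, with a gap of 0.869 of the range. The foods are different plants and not replicates, chance alone would mark about 1 in 20 groups of normally distributed values, and these shares are skewed, so both only mark values to look at.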

How the results depend on the processing

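Orange over walnut for the copper families was 1.48 in shares. In deposited normalized reads this ratio was 0.964, with an interval that included 1 (0.905 to 1.03). It was 1.30 with TMM, 1.95 with DESeq2 default and 1.87 with poscounts factors, 1.70 without the 3 highest genes, and 1.65 for MIR398a alone. Walnut over pear turned to 0.564 with DESeq2 default and 0.603 with poscounts factors, and orange over almond to 0.785 in deposited reads. For miR398, pear over walnut turned to 0.384 in deposited reads. For MIR398a, spinach over almond turned to 0.0878 in deposited reads and 0.603 with DESeq2 default factors. MIR398a in tomato over pear was 0.896 in deposited reads (0.637 to 1.27) and 0.898 with TMM (0.638 to 1.27), where both intervals included 1. These changes follow from the factors alone, since the counts are the same. The highest food stayed that of the shares for 4 of 4 members, except in deposited reads (2 of 4, with MIR398b and the G1 copy highest in almond).

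Without the 3 highest genes in the denominator, the copper share was 17.2% in orange, 10.1% in walnut, 8.48% in pear, 1.37% in spinach, 1.27% in almond, 0.433% in apple, 0.265% in tomato and 0.0249% in olive. Without the G1 copy, the copper share was 2.78% in pear, 0.600% in almond and 0.00330% in apple. This alternative was chosen after seeing the data, as were MIR398a alone and every pair of foods other than orange over walnut. That pair was taken from the highest values that the study reported for these same libraries, so it too is a description only. With at least 3 counts, the members detected were 1 of 4 in olive and in spinach, and with at least 10 counts 1 in apple, spinach and tomato and 0 in olive. The number of raised pairs of a member and a food was 10 at 10-fold and at 5-fold. MIR398a in spinach, with 247 counts, narrowly missed the 5-fold threshold at 4.97-fold. The number was 8 without almond, which takes away the 2 pairs of almond itself. By Spearman's rho, the closest genes were MIR171d to MIR398b and MIR858 and MIR159 alike to MIR398a.

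No paired analysis was possible because each food had 1 library. Food, plant species, tissue and library cannot be told apart, and values of 1 to 3 counts limit what can be said of MIR397 outside walnut.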
